A study of Homo sapiens with 48 samples.

Results

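Expression of 9 complement genes was examined in PSN1 cells, a human pancreatic cancer cell line: C3, the proteases C1R and C1S, C5, CFB, the fluid-phase regulator CFI, and the membrane regulators CD46, CD55 and CD59. They are 9 of the 20241 genes in the deposited table. They were chosen by the values of C3, which differed strongly between TalaR-M and TalaR-DF cells, and the others joined it as genes of the same system. The members and the further gene lists were chosen with earlier results of these data known, so their calls are no independent test. PSN1 cells were profiled by RNAseq as wild-type parental cells without treatment, as TalaR-M cells and as TalaR-DF cells, with 3 libraries per group. TalaR stands for PSN1 cells that acquired resistance to Talazoparib, a PARP inhibitor, during selection in a gradually rising concentration of the drug. TalaR-M cells were kept in medium with Talazoparib, given in the labels as 50 nM for 4 months. TalaR-DF cells were TalaR cells grown without the drug for 4 weeks. The comparisons ask what differed from parental cells with the drug kept on and after its removal.

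Both TalaR groups derive from the resistant PSN1 cells, so a difference from parental cells holds selection as well as drug exposure, and these cannot be told apart. Each group was harvested in triplicate, and nothing states that the replicates came from separately selected cultures, so the p-values measure the spread between these libraries. Values are log2 CPM (the reads of a gene scaled to the depth of its library), and every value under 1 CPM was deposited as 0. Total reads on genes above 1 CPM were between 12213605 and 14973847 in 8 libraries. TalaR-M replicate 2 had 8387755 reads and stood apart: 4574 of 9885 well-expressed genes were over 2-fold from the mean of the other TalaR-M libraries, against at most 10 in any parental or TalaR-DF library. TalaR-M replicates 1 and 3, each set against a mean that holds replicate 2, had 1372 and 1188 such genes. A trend with transcript length and GC content covered 52.9% of the variance of the deviation in TalaR-M replicate 2, 51.4% and 50.8% in the other TalaR-M libraries, and at most 36.0% in any other library. The deviations of TalaR-M replicates 1 and 3 are again from a mean that holds replicate 2, so their shares do not show a trend of their own. Where TalaR-M replicate 2 decides whether a named gene was called or over 2-fold, the value without it is given as well. Keratin genes and EPCAM, markers of ductal cells, were measured in all groups, whereas CDH1, another such marker, was listed at 0 throughout.

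Complement is a cascade of secreted proteases that marks surfaces for removal. The classical pathway is started by C1r and C1s, which sit in the C1 complex. The alternative pathway uses factor B, the catalytic part of its C3 convertase. Both pathways converge on cleavage of C3, the most abundant complement protein of plasma, and then of C5, which opens the terminal pathway. Cells are shielded by CD46, a cofactor by which factor I cleaves C3b and C4b, by CD55, which speeds the decay of convertases, and by CD59, which blocks assembly of the membrane attack complex. The liver makes most circulating complement, but many epithelial and tumour cells also express these genes.

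C1R and CFB were the members that passed the test in both comparisons, higher in TalaR-M and lower in TalaR-DF cells than in parental cells, and their sequences upstream of the start are shown for that reason. For CFB in TalaR-M the call needed TalaR-M replicate 2, as given with its values. They were taken from RefSeq (GRCh38.p14), which held promoters for 7 of the 9 members. The 250 bases before each start were searched on both strands for the E-box CACCTG bound by SNAI2 (17.5% of 35116 promoters held it), the GAS letters TTCNNNGAA bound by STATs (6.57%), the C/EBP letters TTGCNNAA (9.05%), GAAANNGAA within the interferon response element (6.88%) and the kappa B consensus (5.21%). Capitals mark matches, and positions are relative to the start. The printed C1R line runs from -250 to -96 and the CFB line from -250 to -113. Each stops before the first annotated untranslated region and does not reach the start. The short CFB lines hold single matches nearer the start. The first C1R stretch, on the minus strand at chr12:7092541-7092695, held the E-box at -173 to -168 and the C/EBP letters at -106 to -99, both as their reverse complements. The CFB stretch, on the plus strand at chr6:31945845-31945982, held the interferon element letters as their reverse complement at -139 to -131. This stretch and the CFB matches nearer the start lie inside the CFB gene model, which begins at chr6:31945650, before the start used here. Nearer the CFB start, the GAS letters (chr6:31945995-31946019) lay at -92 to -84, and the E-box (chr6:31946036-31946057) as its reverse complement at -51 to -46. The second C1R start held the GAS letters at -86 to -78 and the C/EBP letters at -167 to -160. A match describes the letters and shows no binding.
C1R upstream: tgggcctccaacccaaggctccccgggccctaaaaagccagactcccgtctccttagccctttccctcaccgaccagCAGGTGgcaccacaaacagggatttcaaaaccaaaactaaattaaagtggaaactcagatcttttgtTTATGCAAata
CFB upstream: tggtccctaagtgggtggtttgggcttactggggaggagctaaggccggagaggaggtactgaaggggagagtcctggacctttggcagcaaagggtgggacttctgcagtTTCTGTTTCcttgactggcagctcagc
CFB E-box: gcgagccgCAGGTGccagaaca
CFB GAS: cttggatgTTCCGGGAAagtgatgt

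None of the 5 motifs was found in the 250 bases before the annotated starts of C5, CFI, CD46 and CD55, and this says only that these letters are not in those windows. CD59, which was not called, has 4 starts in the table: the first and second held the GAS letters, at -128 to -120 and at -184 to -176. The third CD59 start held the E-box at -107 to -102 and the C/EBP letters at -53 to -46 and, as their reverse complement, at -191 to -184, and the fourth held none.

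C3 was among the abundant complement transcripts in parental and TalaR-M cells and low in TalaR-DF cells. The gene (ENSG00000125730.18) lies on the minus strand of chr19:6677704-6730562 (hg38). It measured 6.86, 6.84 and 6.82 log2 CPM in the parental libraries, 6.82, 6.95 and 6.79 in the TalaR-M libraries, and 2.61, 2.77 and 2.92 in the TalaR-DF libraries. Parental and TalaR-M values overlapped, and all TalaR-DF values lay far below both. In reads, this was 1492 to 1702 per parental library, 934 to 1778 per TalaR-M library, and 88 to 95 per TalaR-DF library. The mean was 115 CPM in parental cells, 116 CPM in TalaR-M cells and 6.84 CPM in TalaR-DF cells. TalaR-M was 4.09 ± 0.13 (log2 difference ± SE) above TalaR-DF, or 17.0-fold, which is the contrast that chose the gene. TalaR-M differed from parental by 0.01 ± 0.13, and TalaR-DF from parental by -4.07 ± 0.13, or 16.8-fold lower. Because C3 was picked for its values in the TalaR-M and TalaR-DF libraries, these differences are a description and no p is given for C3. The C3 and GPR108 gene models share 649 bp on the same strand, so reads there could be counted for either gene.

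**Figure D1:**
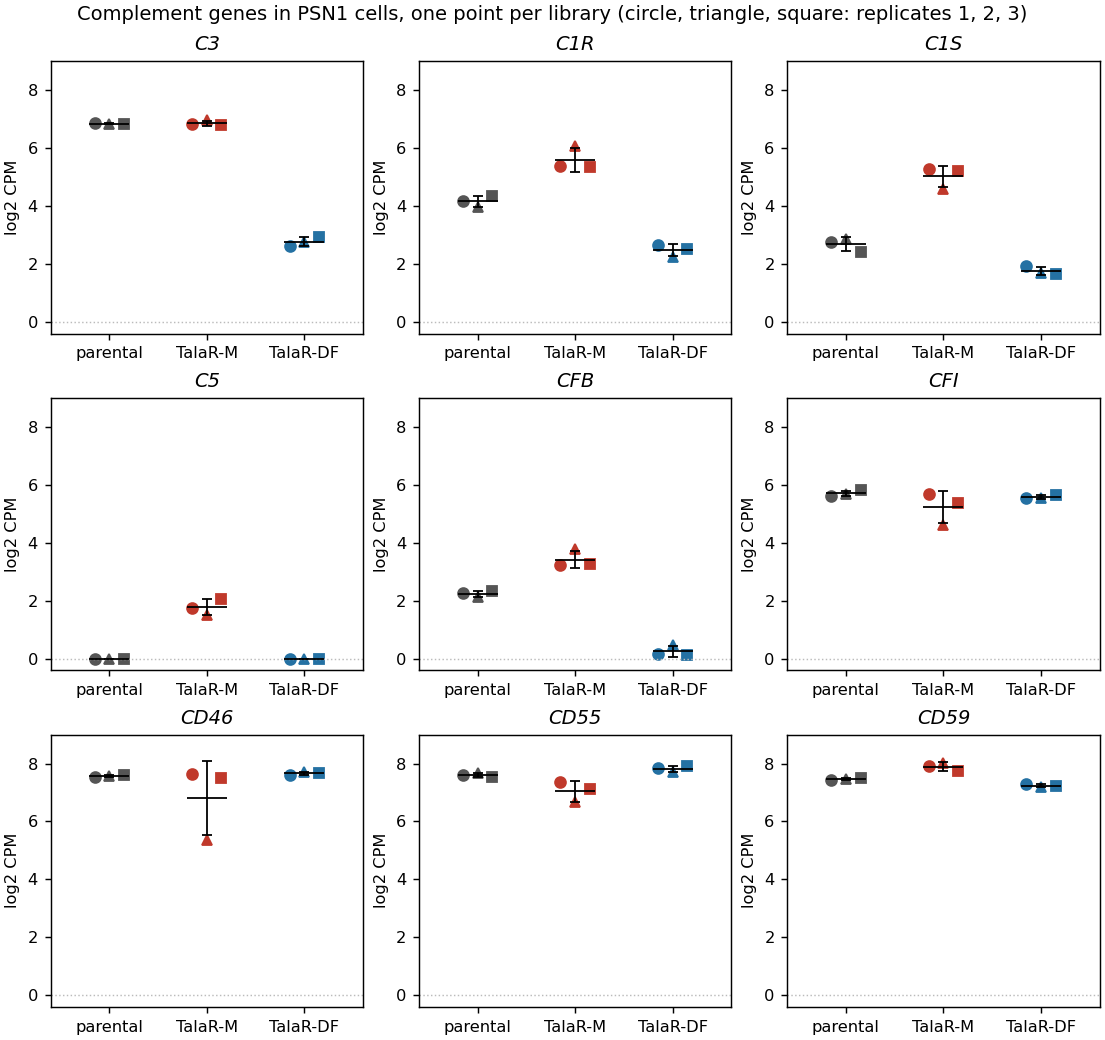
Level of each complement gene (log2 CPM, vertical axis) in parental, TalaR-M and TalaR-DF PSN1 cells. Each point is 1 library (circle, triangle and square for replicates 1, 2 and 3), and bars are the mean and SD, n = 3. C3 sits between 6.79 and 6.95 in parental and TalaR-M libraries and at most at 2.92 in TalaR-DF, while CD46, CD55 and CD59 lie between 6.66 and 8.02 in every library except for CD46 in TalaR-M replicate 2 (5.36).

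C1R and C1S, which encode the paired proteases of C1, differed from C3 in that both rose in TalaR-M over parental cells. C1R (ENSG00000159403.18, minus strand, chr12:7080214-7092540) measured 4.18, 3.98 and 4.35 log2 CPM in parental libraries, 5.37, 6.06 and 5.35 in TalaR-M, and 2.66, 2.24 and 2.51 in TalaR-DF. The 3 groups did not overlap, with TalaR-M highest and TalaR-DF lowest. C1R rose 2.69-fold in TalaR-M against parental cells (log2 1.43 ± 0.23 SE, limma adjusted p = 0.00304) and 1.19 without TalaR-M replicate 2, the highest library. It fell 3.25-fold in TalaR-DF against parental cells (log2 -1.70 ± 0.23 SE, limma adjusted p = 0.00146). Over the alternative settings the adjusted p ran from 7.78e-06 to 0.0187 for the rise and from 1.22e-08 to 0.0105 for the fall. The C1R and C1RL gene models share 2954 bp on the same strand, so reads there could be counted for either gene. C1RL measured 4.15, 3.92 and 4.08 in parental libraries, 3.93, 3.69 and 4.20 in TalaR-M, and 2.89, 3.16 and 3.13 in TalaR-DF.

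C1S (ENSG00000182326.17, plus strand, chr12:6988259-7071032) measured 2.77, 2.86 and 2.41 log2 CPM in parental libraries, 5.27, 4.59 and 5.20 in TalaR-M, and 1.92, 1.68 and 1.66 in TalaR-DF. The order of the groups was that of C1R, again without overlap, with the widest step between parental and TalaR-M. C1S rose 5.07-fold in TalaR-M against parental cells (log2 2.34 ± 0.22 SE, limma adjusted p = 0.000149; range over the alternative settings 7e-09 to 0.00309). Its difference in TalaR-DF against parental cells was -0.93 ± 0.22, with a limma adjusted p of 0.0224, and stayed short of the 2-fold set for a call. Without parental replicate 3, the lowest parental library, the difference was -1.06 and was called (adjusted p = 0.0365). C1S shares 9170 bp with another protein-coding gene model on its own strand, so its count is uncertain to that extent. It also overlaps LPCAT3 on the opposite strand, and how the authors' counting treated such overlaps is not given in the sources used here.

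CFB, whose product is the protease of the alternative pathway convertase, followed the order of C1R and C1S at lower levels. CFB (ENSG00000243649.10, plus strand, chr6:31945650-31952086) measured 2.25, 2.13 and 2.34 log2 CPM in parental libraries, 3.23, 3.77 and 3.25 in TalaR-M, and 0.14, 0.47 and 0.14 in TalaR-DF. TalaR-M libraries were all highest and TalaR-DF libraries all lowest, at 13 to 18 reads each. CFB fell 3.98-fold in TalaR-DF against parental cells (log2 -1.99 ± 0.19 SE, limma adjusted p = 0.000172; range over the alternative settings 2.79e-09 to 0.00582). It rose 2.25-fold in TalaR-M (log2 1.17 ± 0.19 SE, limma adjusted p = 0.00272; range 4.52e-05 to 0.0182). Without TalaR-M replicate 2 that difference was 0.997 on the log2 scale, just short of 2-fold, with an adjusted p of 0.000118. CFB lies within a longer read-through gene model on its strand, so its count is uncertain to that extent.

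C5, the entry to the terminal pathway, was measured above 1 CPM only in the TalaR-M libraries. C5 (ENSG00000106804.10, minus strand, chr9:120932987-121075195) was listed at 0 in all 3 parental and all 3 TalaR-DF libraries. It measured 1.73, 1.52 and 2.07 log2 CPM in TalaR-M, from 51, 21 and 58 reads. With 1 CPM worth 6.97 to 14.5 reads, C5 transcript below that level cannot be seen in the other groups, and no fold is given. The fit called C5 (limma adjusted p = 6.33e-05), but a gene that passes the filter on low values through a single group had to differ from the others. The members of the membrane attack complex downstream of C5, namely C6, C7, C8A, C8B, C8G and C9, were listed at 0 in all 9 libraries.

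The regulators formed a separate group: all 4 were abundant in every group of cells, and none was called in either comparison with parental cells. CFI encodes factor I, the protease that inactivates C3b and C4b. CFI (ENSG00000205403.15, minus strand, chr4:109731008-109802150) measured 5.62, 5.69 and 5.80 log2 CPM in parental libraries, 5.68, 4.61 and 5.38 in TalaR-M, and 5.54, 5.56 and 5.66 in TalaR-DF. The groups overlapped, with TalaR-M replicate 2 lowest. CFI in TalaR-M was -0.48 ± 0.25 from parental (limma adjusted p = 0.195), and -0.18 without that library, while TalaR-DF was -0.12 ± 0.25 from parental (limma adjusted p = 0.835). The 3 groups share 1 fit, so the spread of TalaR-M replicate 2 also widens the standard error in TalaR-DF. Without that library CFI in TalaR-DF was -0.12 ± 0.08 from parental (limma adjusted p = 0.237).

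CD46 (ENSG00000117335.21, plus strand, chr1:207752037-207795513) measured 7.55, 7.57 and 7.59 in parental libraries, 7.64, 5.36 and 7.49 in TalaR-M, and 7.59, 7.70 and 7.68 in TalaR-DF. All libraries lay within a narrow band except TalaR-M replicate 2, which was 2.21 below the mean of the other TalaR-M libraries. CD46 was -0.74 ± 0.53 from parental in TalaR-M (limma adjusted p = 0.325) and -0.01 without that library (adjusted p = 0.937). In TalaR-DF CD46 was 0.09 ± 0.53 from parental (limma adjusted p = 0.955), or 0.09 ± 0.06 without TalaR-M replicate 2 (limma adjusted p = 0.194).

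CD55 and CD59 are both held in the membrane by a GPI anchor, and their differences from parental cells were short of 2-fold and opposite in sign. CD55 (ENSG00000196352.18, plus strand, chr1:207321519-207386804) measured 7.59, 7.67 and 7.53 in parental libraries, 7.38, 6.66 and 7.10 in TalaR-M, and 7.83, 7.71 and 7.91 in TalaR-DF. TalaR-M libraries were all lowest and TalaR-DF libraries all highest, without overlap. The CD55 difference from parental was -0.55 ± 0.18 in TalaR-M (limma adjusted p = 0.0647), or -0.36 without TalaR-M replicate 2 (adjusted p = 0.00403), and 0.22 ± 0.18 in TalaR-DF (limma adjusted p = 0.524). Without TalaR-M replicate 2 in the fit, CD55 in TalaR-DF was 0.22 ± 0.08 from parental (limma adjusted p = 0.028, short of 2-fold). CD59 (ENSG00000085063.18, minus strand, chr11:33703010-33736479) measured 7.45, 7.45 and 7.50 in parental libraries, 7.93, 8.02 and 7.73 in TalaR-M, and 7.29, 7.20 and 7.21 in TalaR-DF. CD59 was thus highest in TalaR-M and lowest in TalaR-DF libraries, without overlap. Its difference from parental was 0.43 ± 0.12 in TalaR-M (limma adjusted p = 0.0336, short of 2-fold) and -0.23 ± 0.12 in TalaR-DF (limma adjusted p = 0.25). With the length and GC trend removed, CD59 in TalaR-M was 0.90 from parental (limma adjusted p = 0.0827), still short of 2-fold. Without TalaR-M replicate 2, CD59 in TalaR-DF was -0.23 ± 0.06 from parental (limma adjusted p = 0.00563, short of 2-fold). CFI and CD59 each share their strand with a longer gene model, so their counts are uncertain to that extent.

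Of the 8 members other than C3, 4 (C1R, C1S, C5 and CFB) were called higher in TalaR-M against parental cells and 0 lower, and 3 higher without TalaR-M replicate 2. C5 is among them through its single group, so of the other 7 members 3 were called. Among all 12471 genes tested, 13.3% were called in this comparison, 5.53% higher and 7.72% lower. In TalaR-DF against parental cells, 2 of the 8 members (C1R and CFB) were called lower and 0 higher, against 9.73% of all genes, 7.49% lower and 2.25% higher. Where limma called 0 members, an unadjusted p under 0.05 with a 2-fold difference also gave 0. Both comparisons share the parental libraries. The members were chosen with earlier results of these data known, so these counts are no independent test. Libraries of TalaR-M and parental cells did not overlap in 6 of the 9 members, 5 higher and 1 lower, against 49.8% of all genes (20.9% higher and 28.8% lower). Libraries of TalaR-DF and parental cells did not overlap in 6 of the 9, 1 higher and 5 lower, against 68.5% of all genes (35.3% higher and 33.2% lower). C5, fixed through its single group, is among the 5 higher in TalaR-M. C3, chosen by its values, is among the 5 lower in TalaR-DF, and nothing is read from these 2 counts. In the contrast of TalaR-M with TalaR-DF, which chose C3, 5 of 9 members differed at least 2-fold in the fitted value, against 13.9% of all genes, and nothing is read from that count. These fitted folds, TalaR-M over TalaR-DF, were 17.0 for C3, 9.63 for C1S, 8.97 for CFB and 8.73 for C1R, with C5 listed at 0 in TalaR-DF. For the 4 regulators the log2 differences in the same contrast were -0.83 for CD46, -0.77 for CD55, -0.36 for CFI and 0.66 for CD59, and -0.10, -0.57, -0.06 and 0.60 without TalaR-M replicate 2.

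**Figure D2:**
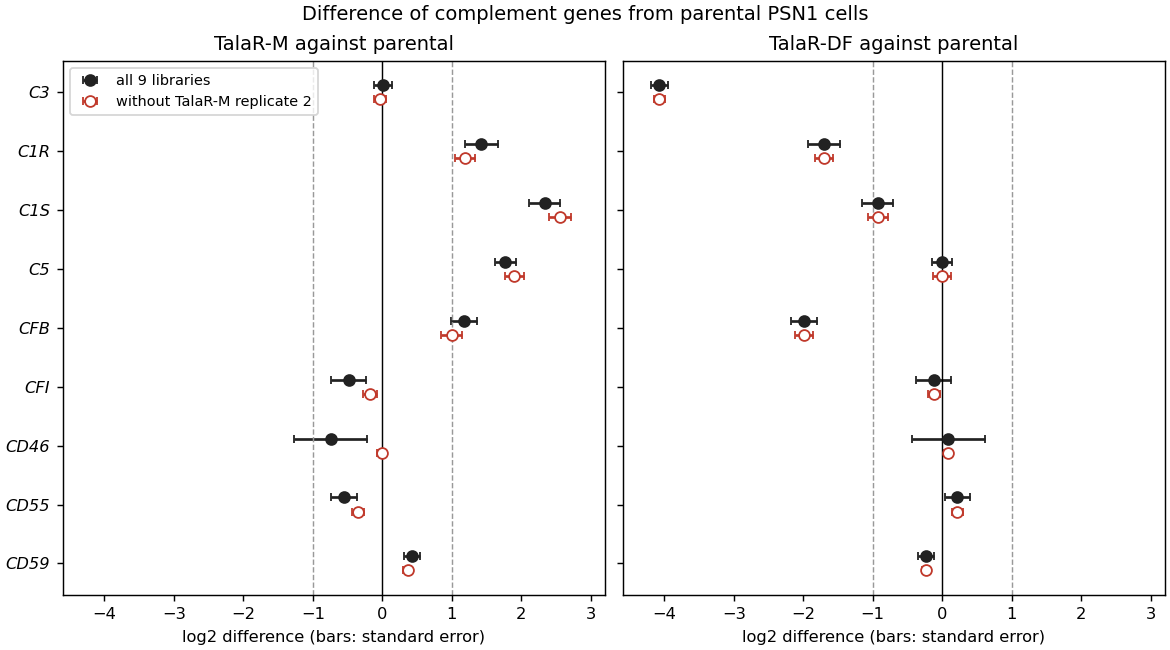
Log2 difference of each complement gene from parental PSN1 cells (horizontal axis, bars are the standard error) in TalaR-M (left) and TalaR-DF cells (right), with all 9 libraries (filled) and without TalaR-M replicate 2 (open). Dashed lines mark 2-fold. C1R, C1S and CFB lie right of 0 on the left and left of 0 on the right, C3 lies at 0.01 and -4.07, and CD46 moves from -0.74 to -0.01 when TalaR-M replicate 2 is left out.

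Scaled to transcript length, the 4 regulators had the highest mean levels of the members in parental and TalaR-DF cells. In TalaR-M cells C3 and C1R were above CFI by the mean of all 3 libraries, and this rests on TalaR-M replicate 2. There CFI was at 24.4 CPM, against 51.2 and 41.6 in TalaR-M replicates 1 and 3, and C1R at 66.9 against 41.5 and 40.7. In parental cells the mean CPM per kilobase was 74.9 for CD55, 57.2 for CD46, 26.4 for CFI, 23.4 for CD59, 21.9 for C3, 7.27 for C1R, 2.41 for C1S and 1.92 for CFB. Neighbours in that order did not overlap between libraries, except C1S (1.98 to 2.71) and CFB (1.77 to 2.05). In TalaR-M cells the spread of TalaR-M replicate 2 widened the levels of CD55 (39.0 to 64.2) and CD46 (12.3 to 59.9), which overlapped. C3 in TalaR-M cells was at 22.2 CPM per kilobase, within the range of C1R (16.4 to 26.9) and of CFI (12.3 to 25.9), and C1S was at 12.4. In TalaR-DF cells CD55 (87.2), CD46 (60.8), CFI (24.3) and CD59 (19.9) kept the order they had in parental cells, whereas C3 (1.31) was below C1R (2.24) and overlapped with C1S (1.26). These levels use the length of 1 transcript per gene, which may not be the isoform PSN1 cells make.

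The deviation of TalaR-M replicate 2 differed in sign between members. From the mean of the other TalaR-M libraries it was 0.15 in C3, 0.70 in C1R, 0.53 in CFB and 0.19 in CD59, and -0.64 in C1S, -0.38 in C5, -0.92 in CFI, -2.21 in CD46 and -0.59 in CD55. The transcripts of C3, C1R and CFB have a GC content of 56.5%, 54.0% and 52.4%. Those of CD46, CD55, C5 and CFI have 38.2%, 39.2%, 40.0% and 41.2%, with CD59 at 45.2% and C1S at 48.4%. TalaR-M replicates 1 and 3 differed by at most 0.34, which was in C5. The part of GC content in the single values was not tested.

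Other complement genes were largely silent in these cells. Of 55 further components, regulators and receptors, 32 were listed at 0 in all 9 libraries. Among them were C1QA, C1QB and C1QC, which recognise the target for C1r and C1s, and C2, the classical pathway counterpart of CFB. Of these 55, 20 passed the filter, 4 of them through a single group (SERPING1, C4BPA, ITGAX and VTN). In TalaR-M against parental cells 3 were called higher and 4 lower, where 5.53% of all genes were called higher and 7.72% lower, and the median was -0.33 against -0.09 over all genes. In TalaR-DF against parental cells 0 were called higher and 6 lower, or 7 without TalaR-M replicate 2, where 2.25% and 7.49% of all genes were called, and the median was -0.40 against 0.01. An unadjusted p under 0.05 with a 2-fold difference also gave 0 higher. Without the 4 single-group genes, the calls were 3 higher and 2 lower in TalaR-M, and 4 lower in TalaR-DF.

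The genes called higher in TalaR-M included soluble proteins. C4BPB, the beta chain of C4b-binding protein, measured 0.38, 0 and 0.45 in parental libraries, 3.37, 4.61 and 3.05 in TalaR-M, and 0, 0 and 0.14 in TalaR-DF. It rose by 3.40 in TalaR-M (limma adjusted p = 0.000304), and the alpha chain C4BPA was between 0.28 and 0.45 in parental and at 0 in all TalaR libraries. COLEC10, a collectin of the lectin pathway, rose by 1.57 in TalaR-M (limma adjusted p = 0.00653) and was 0.67 above parental in TalaR-DF (limma adjusted p = 0.181). Without TalaR-M replicate 2 the limma adjusted p in TalaR-DF was 0.00212, still short of 2-fold.

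The genes called lower included initiators and inhibitors. C4A, a component of the classical C3 convertase, fell in TalaR-M (log2 -1.34, limma adjusted p = 0.0198, but -0.95 and short of 2-fold without TalaR-M replicate 2) and in TalaR-DF (log2 -1.15, limma adjusted p = 0.0424). C4B, its near-identical copy, fell by 1.29 in TalaR-DF (limma adjusted p = 0.0466), and reads of the pair could be split between them. SERPING1, the C1 inhibitor, measured 1.37, 1.11 and 1.18 in parental libraries and was listed at 0 in the other 6. ITGAX, a subunit of a receptor for C3 fragments, measured 0.77, 1.52 and 1.14 in parental libraries and was likewise at 0 in the rest. Both were called lower in both comparisons, which was fixed because they passed the filter through the parental group alone. CSMD3, a membrane protein with complement control domains, was at 0 in the 3 TalaR-M libraries, from 1.03 to 1.37 in parental and from 0.92 to 1.14 in TalaR-DF libraries. SUSD4, a membrane complement inhibitor, was at 0 in the 3 TalaR-DF libraries and from 1.08 to 1.63 in parental libraries (limma adjusted p = 0.0371). It measured 1.70, 0 and 0.89 in TalaR-M, so it passed the filter only with its parental values, and little is read from its call.

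CLU was called lower in TalaR-DF cells and is expressed at a level near that of C3 in parental cells. It encodes clusterin, an inhibitor of the terminal complex and an extracellular chaperone. CLU measured 6.96, 6.80 and 6.82 log2 CPM in parental libraries, 6.63, 7.64 and 6.51 in TalaR-M, and 5.20, 5.11 and 5.15 in TalaR-DF. With all libraries, parental and TalaR-M values overlapped, and TalaR-DF values were below both. For CLU the overlap came from TalaR-M replicate 2 (7.64), whereas TalaR-M replicates 1 and 3 lay below all parental values. CLU fell by 1.71 in TalaR-DF against parental cells (limma adjusted p = 0.00322) and was 0.06 above parental in TalaR-M (limma adjusted p = 0.878), or -0.29 without TalaR-M replicate 2 (adjusted p = 0.00412). Between TalaR-M and TalaR-DF the fitted difference was over 2-fold for genes that included C4BPB (3.63), CLU (1.77), CFD (1.04) and CSMD3 (-1.0). CFD, which cleaves factor B, was at 4.01 in TalaR-M replicate 2 and at 1.42 and 1.89 in the other TalaR-M libraries, against 2.82, 2.59 and 2.86 in parental and between 1.03 and 1.66 in TalaR-DF libraries. Without TalaR-M replicate 2, CFD differed by 0.26 between TalaR-M and TalaR-DF, and was called lower than parental in TalaR-M (-1.10, limma adjusted p = 0.000608) and in TalaR-DF (-1.36, limma adjusted p = 4.74e-05). With all libraries it was called in neither. Without that library, SUSD4 (1.30) and C1RL (1.00) were also over 2-fold between TalaR-M and TalaR-DF.

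**Figure D3:**
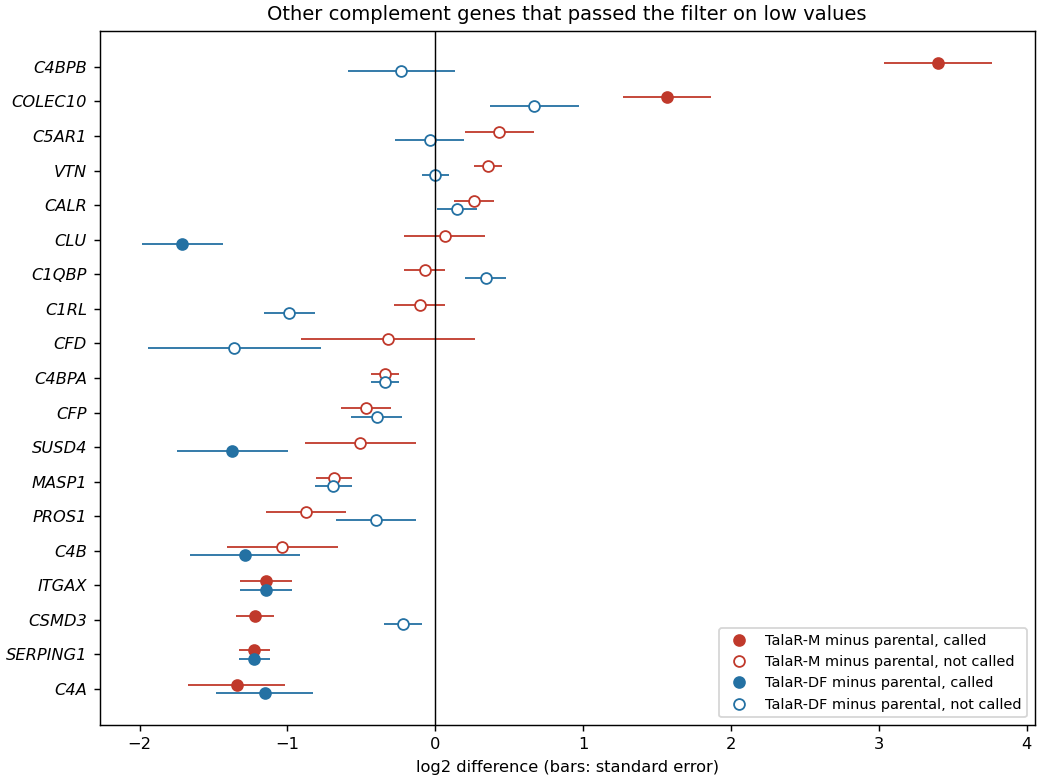
Log2 difference from parental PSN1 cells (horizontal axis, bars are the standard error) of 19 other complement genes that passed the filter, in TalaR-M (red) and TalaR-DF cells (blue). Filled points were called. C4BPB lies furthest right in TalaR-M at 3.40, and CLU furthest left in TalaR-DF at -1.71.

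Genes that can induce complement expression (33 cytokines, receptors and transcription factors, of which 28 were tested) were called in a few cases, all lower. In TalaR-M against parental cells 0 were called higher and 6 lower, where 5.53% and 7.72% of all genes were called. In TalaR-DF 0 were called higher and 5 lower, or 6 lower without TalaR-M replicate 2, where 2.25% and 7.49% of all genes were called. With the p left unadjusted, 0 of them were 2-fold higher at 0.05 in both. The median of the list was -0.53 in TalaR-M (-0.22 without TalaR-M replicate 2) and -0.63 in TalaR-DF, against -0.09 and 0.01 over all genes. IL1B, an inflammatory cytokine, measured 4.61, 4.67 and 4.53 in parental libraries, 2.44, 2.07 and 2.10 in TalaR-M, and 1.39, 1.03 and 0.92 in TalaR-DF. IL1B fell in TalaR-M (log2 -2.40, limma adjusted p = 3.25e-05) and in TalaR-DF (log2 -3.49, limma adjusted p = 4.82e-06). HNF4A, a hepatic and gut transcription factor, measured 2.99, 2.86 and 3.39 in parental libraries and was listed at 0 in all TalaR libraries, which fixes its call in both comparisons.

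The other calls of that list are given by comparison, and the difference between the comparisons was not tested. In TalaR-M cells OSMR, the oncostatin M receptor, the transcription factor gene SP1, the IL-6 receptor gene IL6R and the cytokine gene LIF fell, with log2 differences of -1.82, -1.64, -1.56 and -1.01 (limma adjusted p = 0.0306, 0.0206, 0.00988 and 0.000574). Without TalaR-M replicate 2 these were -1.13, -1.08, -1.19 and -0.93, the last short of 2-fold. In TalaR-DF cells NFKB2, CEBPB and the liver X receptor gene NR1H3 fell, with log2 differences of -1.16, -1.15 and -1.07 (limma adjusted p = 0.00282, 0.00946 and 0.0438). In TalaR-M cells CEBPB was -0.84 from parental (limma adjusted p = 0.0317, short of 2-fold), and without TalaR-M replicate 2 it was -1.06 and called (adjusted p = 3.45e-05). IL1R1, at -1.15 from parental in TalaR-DF, was called without that library only (limma adjusted p = 5.33e-06, against 0.227 with it). Between TalaR-M and TalaR-DF the fitted difference was over 2-fold for 4 genes, all higher in TalaR-M. These were CEBPD (1.52), RELB (1.16), IL6 (1.16) and IL1B (1.09). Without TalaR-M replicate 2 RELB was at 0.87, and IL1R1 was over 2-fold at 1.33. CEBPD, an acute phase transcription factor, measured 3.60, 3.60 and 3.93 in parental libraries, 4.31, 5.23 and 4.19 in TalaR-M, and 3.43, 3.01 and 2.73 in TalaR-DF. IL6 measured 0.77, 0 and 0 in parental libraries, 1.03, 1.22 and 1.23 in TalaR-M, and 0 in each TalaR-DF library. It passed the filter only with its TalaR-M values, which fixed the direction of its difference from TalaR-DF, and little is read from it. IFNB1, IFNG, TNF and OSM were listed at 0 throughout.

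Synthesis of the GPI anchor, on which CD55 and CD59 depend, was read from 25 tested genes. In TalaR-M against parental cells 0 of them were called, where 13.3% of all genes were, and in TalaR-DF 1 was called, where 9.73% of all genes were. For TalaR-M an unadjusted p under 0.05 with a 2-fold difference gave 1 lower gene. PIGW, an acyltransferase of the pathway, rose by 1.02 in TalaR-DF (limma adjusted p = 0.0116) and was 0.83 above parental in TalaR-M (limma adjusted p = 0.0244), or 1.08 and called without TalaR-M replicate 2. Between TalaR-M and TalaR-DF the fitted difference was over 2-fold for MPPE1 (1.07), GPAA1 (1.06) and PGAP1 (-1.05). Without TalaR-M replicate 2 these were 1.21, 0.64 and -0.24, so that MPPE1 alone of the 3 was over 2-fold. Of 8 proteases that can cleave C3 or C5 outside the cascade, 4 were tested. PLAU, or urokinase, measured 4.48, 4.42 and 4.58 in parental libraries, 5.75, 5.94 and 5.75 in TalaR-M, and 4.47, 4.48 and 4.47 in TalaR-DF. PLAU rose by 1.32 in TalaR-M (limma adjusted p = 0.000133) and was -0.02 from parental in TalaR-DF (limma adjusted p = 0.95). CTSL, cathepsin L, was -0.79 and -0.84 from parental in TalaR-M and TalaR-DF, short of 2-fold.

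The genes whose pattern over the 9 libraries was nearest to that of C3 were ranked by the root mean square distance of their log2 values, each centred on its own mean. They were TMEM98 (0.518), EVA1A (0.540), GBP4 (0.557), HAPLN1 (0.568) and CD82 (0.630). In TMEM98 the group means were 5.57 in parental, 4.80 in TalaR-M and 1.90 in TalaR-DF cells, and in GBP4, an interferon-inducible GTPase, 3.45, 3.98 and 0.27. Over the 8 libraries without TalaR-M replicate 2 the nearest were INHBA (0.331), MCAM (0.358), HAPLN1 (0.385), PDGFB (0.449) and TMEM98 (0.449). HAPLN1 and TMEM98 were in both lists. The ranking describes likeness in the libraries that chose C3 and carries no test.

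**Figure D4:**
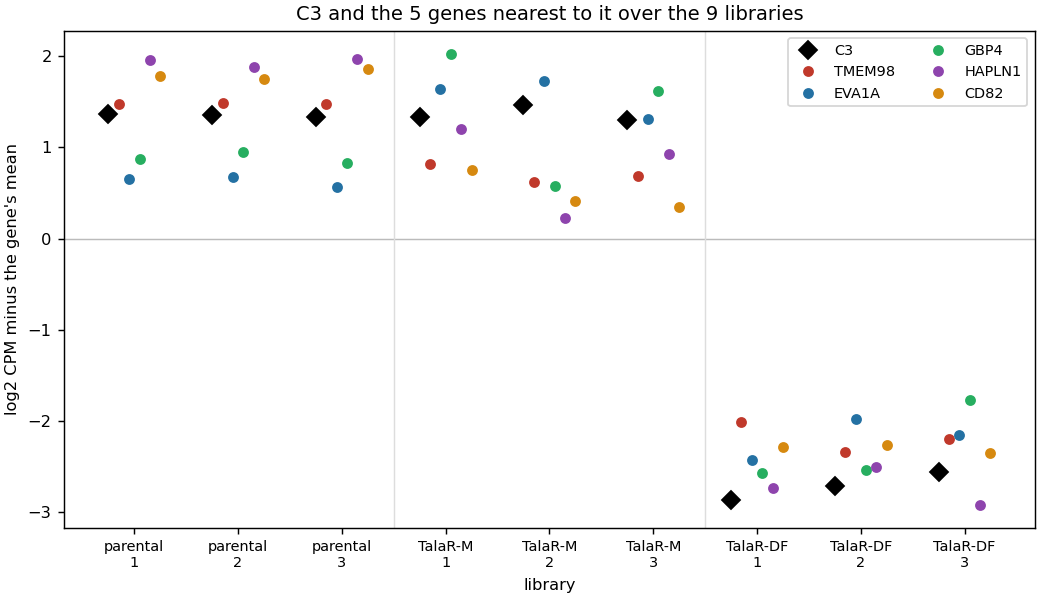
Log2 CPM minus the gene's own mean (vertical axis) in each of the 9 libraries (horizontal axis) for C3 (black diamonds) and the 5 genes nearest to it. All 6 genes lie above 0 in parental and TalaR-M libraries and at or below -1.78 in TalaR-DF libraries.

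Markers of other cell types that can make complement differed between the groups. The summed level of 14 hepatocyte markers was 90.6 to 104 CPM in parental, 25.1 to 47.3 in TalaR-M and 12.5 to 15.7 in TalaR-DF libraries, with 9 of them, including ALB, TTR and APOB, at 0 in all. SERPINA1 carried most of it, at 6.58, 6.49 and 6.40 log2 CPM in parental libraries. The sum of 10 leukocyte markers was 14.8 to 18.0, 4.14 to 7.11 and 1.18 to 2.56 CPM in the same order, with 7 at 0, including CD3E and LYZ. The sum of 8 fibroblast markers was 196 to 208, 34.6 to 105 and 339 to 383 CPM, with FAP, THY1 and PDPN at 0. POSTN rose by 3.67 in TalaR-DF (limma adjusted p = 0.00216), whereas PDGFRB (-3.27, limma adjusted p = 0.000141) and LUM (-1.78, limma adjusted p = 0.00704) fell. The lowest fibroblast sum of TalaR-M was replicate 2, and the other TalaR-M libraries were at 96.7 and 105 CPM. The sum of 5 endothelial markers was 28.9 to 32.1, 5.91 to 10.3 and 2.92 to 3.24 CPM, with VWF at 0. The 10 ductal markers summed to 1199 to 1261, 1784 to 5831 and 1017 to 1153 CPM. The 5831 CPM was TalaR-M replicate 2, and the other TalaR-M libraries were at 1784 and 1938 CPM. Their part in the complement values was not tested, and in bulk RNA fewer cells with a transcript and less transcript per cell cannot be told apart.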

How the data were processed

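Poly(A) RNA of PSN1 cells in 3 groups, with 3 libraries each, was made into stranded libraries and sequenced as 150-base paired reads. For 20241 genes the deposited values are log2 CPM that include a prior count, and the authors set negative ones to 0. This was read from the values, which gave whole reads for 100% of values under 50 CPM (tolerance 0.05). Build hg38 is named in the submitters' processing notes, while the aligner, counter and annotation are not given in the sources used here. The column names say maintain for TalaR-M and withdraw for TalaR-DF. The other 39 of 48 samples were not analysed here.

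The log2 values were fitted with limma 3.58.1 in R 4.3.3, in 1 model of 3 groups with a mean-variance trend, and no pseudocount was added. The 12471 genes exceeding 1 CPM in 3 libraries or more entered the test, and calls needed 0.05 after Benjamini-Hochberg adjustment together with a 2-fold difference. On simulated data, 200 of 200 genes changed by a log2 fold of 2 were recovered in TalaR-M against parental, with 1 false call among 12471 genes. The simulated libraries held none that stood apart as TalaR-M replicate 2 does. This checks that the steps run correctly and gives no error rate for the real TalaR-M group. An exact permutation test of 3 against 3 libraries cannot give a p under 0.1 and was not used. Positions, lengths and overlaps came from GENCODE 44, and plotting used Python 3.11.15 and matplotlib 3.10.9. All members were named, with the genes of the lists called against parental cells or over 2-fold between TalaR-M and TalaR-DF, and the 5 genes nearest to C3. The members and lists were chosen with earlier results of these data known. The alternatives were other pseudocounts, filters, thresholds, scaling, weights, trends, a replicate block and leaving out each library. Some items are not reported here.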

Additional observations from a re-analysis of the deposited data

How the results depend on the processing

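No called difference of a member reversed its direction under any alternative. Of values that were not called, CD46 in TalaR-DF over parental went from 0.0892 to -0.0743 with the length and GC trend removed. C3 in TalaR-M over parental went from 0.01 to -0.04 with array weights and to -0.03 without TalaR-M replicate 2. The same C3 difference moved further upward, to 0.30 with the length and GC trend removed and to 0.13 when rescaled by the median ratio. Counts are given in the order of TalaR-M over parental, then TalaR-DF over parental, then TalaR-M over TalaR-DF. With 8 CPM added after undoing the log, 711, 426 and 272 genes were called, and of the members other than C3, 2 and 0 were called in the first and second, since C5 (0.52), CFB (0.56, and -0.47 in TalaR-DF) and C1R (-0.94 in TalaR-DF) came short of 2-fold. The adjusted p without a fold threshold gave 2938, 2315 and 1502 genes, and a 1.5-fold threshold 2637, 2042 and 1369. Fitting the TalaR groups alone called 484. Leaving out 1 library at a time gave 1298 to 2045, 983 to 1417 and 578 to 1043 genes, 3 to 4 and 2 to 3 members other than C3, and 5 to 6 members at least 2-fold apart between TalaR-M and TalaR-DF. The low values were without TalaR-M replicate 2 (CFB) and the high ones without parental replicate 3 (C1S) and without TalaR-M replicate 1 or 3. Removing the length and GC trend also gave 6 members at least 2-fold apart between TalaR-M and TalaR-DF. Rescaling by the median ratio moved the median of all genes from -0.09 to 0.01 in TalaR-M against parental.

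Deviations of same-numbered libraries from their group means correlated between -0.31 and 0.16 over 9 pairs. Differently numbered libraries of different groups ranged from -0.40 to 0.37. No pairing by replicate number was seen. TalaR-M replicate 2 weighs on all TalaR-M deviations through the group mean, so this check cannot exclude pairing. With the replicate block 1546, 1132 and 750 genes were called, and 4 and 2 members other than C3, with 5 members at least 2-fold apart. Depth limits values under 1 CPM, which were deposited as 0.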
